A study of Homo sapiens with 6 samples.

Results

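The 9 genes described here encode the core of MHC class I antigen presentation. They were taken as a fixed set of symbols, HLA-B, HLA-C, HLA-E, B2M, TAP1, TAP2, TAPBP, ERAP1 and NLRC5, and all 9 were found among the 43424 symbols of the count tables. RNA came from HepG2, an established line of human liver cancer cells with the label WT for genotype. The control group held 3 libraries with no treatment named, and the treated group held 3 libraries of cells kept for 24 h with tamarixetin, a methylated relative of the flavonol quercetin, at 10 µM. Every library is called a biological replicate in the labels. The labels name no vehicle. They give low-serum medium for the treatment and do not state the serum of the control medium over those 24 h. QuantSeq forward libraries read the 3′ end of mRNA, so counts do not grow with transcript length. Levels of different genes are only roughly comparable, because counts also depend on how reads at each 3′ end were assigned. The comparison asks how tamarixetin changed the RNA of heavy chains, of the light chain and of the genes that supply and load peptides.

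MHC class I molecules show peptides from inside the cell to T cells and natural killer cells. A heavy chain pairs with beta-2-microglobulin in the endoplasmic reticulum and takes up a peptide that the proteasome has cut from cytosolic protein and that the TAP transporter has carried across the membrane. Interferons raise most genes of the pathway, and the transactivator NLRC5 acts on heavy chain, B2M and some loading genes through factors bound to their promoters. Hepatocytes are known for low class I levels at rest.

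Promoter sequences are shown first because interferons are known to raise most genes of the pathway, and NLRC5 acts on part of them. Only some of the 9 genes differed between the groups in the test reported after the sequences. The promoters are RefSeq sequences of GRCh38.p14, 180 bases that end just before the start site. All are written 5′ to 3′ on the strand of the gene. The stretches lie at chr6:31357180-31357359 (minus strand) for HLA-B, chr6:31272093-31272272 (minus) for HLA-C, chr15:44711337-44711516 (plus) for B2M, chr6:32853705-32853884 (minus) for TAP1 and chr6:32838740-32838919 (minus) for TAP2. Capitals mark matches, on either strand, to 4 patterns, none of them specific to NLRC5. The core of the interferon response element was searched as GAAA, any 2 bases and GAAA. A class I form of it was searched as AA, any 2 bases and GAAACT. A form of the NF-kB site was searched as GGG, any 2 bases, TT, any base and CC, and the NF-Y box as CCAAT.
HLA-B: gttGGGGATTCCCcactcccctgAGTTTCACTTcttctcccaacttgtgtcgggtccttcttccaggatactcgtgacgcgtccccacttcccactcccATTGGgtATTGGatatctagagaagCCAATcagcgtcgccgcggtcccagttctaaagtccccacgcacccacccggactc
HLA-C: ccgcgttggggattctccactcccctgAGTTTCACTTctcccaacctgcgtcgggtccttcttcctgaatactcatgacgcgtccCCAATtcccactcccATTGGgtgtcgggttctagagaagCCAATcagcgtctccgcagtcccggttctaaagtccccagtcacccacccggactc
B2M: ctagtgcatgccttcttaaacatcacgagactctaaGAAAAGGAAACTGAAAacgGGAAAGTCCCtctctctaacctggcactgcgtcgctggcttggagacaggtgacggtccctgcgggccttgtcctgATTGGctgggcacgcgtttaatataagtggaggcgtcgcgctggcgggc
TAP1: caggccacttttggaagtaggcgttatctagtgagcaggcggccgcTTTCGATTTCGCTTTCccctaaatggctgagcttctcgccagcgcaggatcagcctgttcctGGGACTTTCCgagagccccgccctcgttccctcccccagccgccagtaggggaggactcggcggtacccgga
TAP2: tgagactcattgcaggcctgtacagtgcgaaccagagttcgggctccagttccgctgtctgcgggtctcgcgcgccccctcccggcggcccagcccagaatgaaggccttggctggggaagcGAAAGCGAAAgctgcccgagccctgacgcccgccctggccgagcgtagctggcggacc
HLA-B and HLA-C both hold AGTTTCACTT, which is the class I form read on the other strand, and a CCAAT box starting 56 bases before the start site. The NF-kB form GGGGATTCCC is present in the HLA-B stretch, and the HLA-C stretch has no match to that pattern. In B2M, GAAAAGGAAA, AAAGGAAACT and GAAACTGAAA overlap each other and are followed by GGAAAGTCCC. In TAP1 a pair of overlapping interferon elements starts 134 and 128 bases before the start site, with GGGACTTTCC nearer to it. The TAP2 stretch holds GAAAGCGAAA alone, 58 bases before the start site.

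RefSeq promoter windows of 300 bases (250 before and 50 after a start) were at hand for 7 of the 9 genes, in 9 windows. HLA-E and NLRC5 were not in the table. All 7 held at least one of the interferon elements in a window, and 4.8% of 35116 windows of the genome did. The further windows of TAP1 and ERAP1 held neither element, so a count of genes is not on the same footing as a share of windows. The patterns were searched as elements known from such promoters. The shares are therefore a description and no test of enrichment. The interferon core was present in 5 of the 7 (B2M, TAP1, TAP2, TAPBP and ERAP1) and in 3.57% of all windows. The class I form was present in 3 (HLA-B, HLA-C and B2M) and in 1.57%. The NF-kB form was present in 5 of the 7 and in 5.68% of all windows, and CCAAT in 5 of the 7 and in 34.6%. Of elements for factors that flavonoids are known to act on, the aryl hydrocarbon receptor core GCGTG was present in 4 of the 7 (36.5% of all windows), and the antioxidant element TGACNNNGC, bound by NRF2, had no match in these windows (13.3% of all windows). A match is a stretch of letters and not a measured binding site.

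In control cells the levels of the 9 genes spanned a wide range on the scale of CPM, which are counts scaled to TMM-adjusted library sizes. The order is one of counts and may differ from that of the RNA. For example, PSMA6 and PSMA7, 2 subunits of the proteasome core, had 1.37 and 954 CPM in the controls. B2M was highest, at 351 ± 23.3 CPM (SD, n = 3), above the level of 96.9% of the genes tested. HLA-B stood at 106 ± 4.62, HLA-E at 82.7 ± 3.23 and HLA-C at 79.9 ± 3.00 CPM. HLA-E and HLA-C did not differ beyond their spread, and HLA-B lay above both in every control library. The transporter chains came next, TAP2 at 54.6 ± 4.17 and TAP1 at 26.2 ± 1.72 CPM, then ERAP1 at 13.0 ± 1.67 CPM. NLRC5 at 2.99 ± 0.548 CPM and TAPBP at 1.88 ± 0.260 CPM were the lowest, and their control libraries did not overlap.

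Tamarixetin was compared with control in edgeR's quasi-likelihood test over 13198 genes, with Benjamini-Hochberg adjustment over all of them and a threshold of 0.05. All 9 genes passed the filter on low counts. NLRC5 and TAP2 rose, HLA-C fell, and the other 6 did not pass. That is 3 of 9 genes, against 43.7% of all genes tested (22.4% higher, 21.3% lower). In 4 of the 9 the control and tamarixetin ranges were apart, which held for 50.5% of all genes tested (26% with tamarixetin above and 24.5% with it below). The median log2 fold change of the 9 was 0.046, and that of all genes tested was 0.00038.

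**Figure D1:**
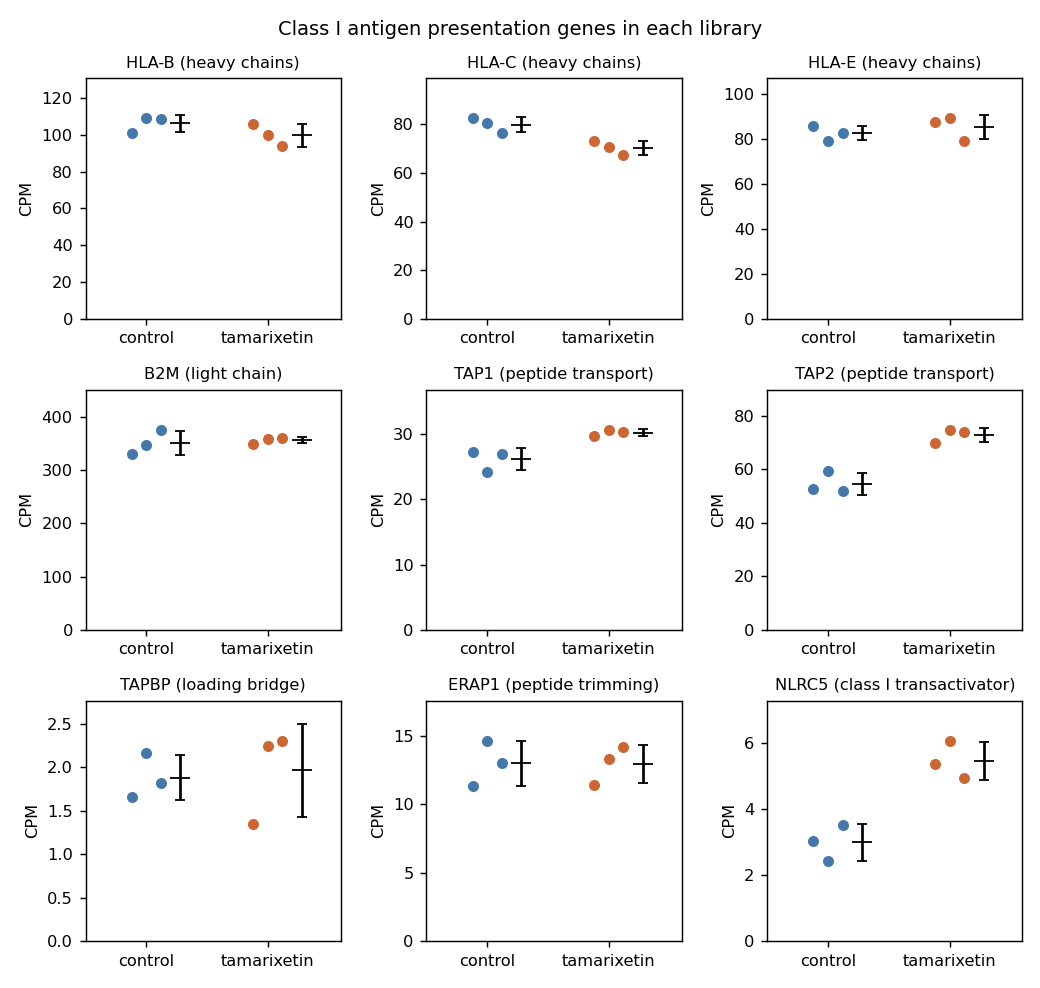
CPM of the 9 genes in each library (y axis, from 0), control in blue and tamarixetin in orange, with the group mean and SD (n = 3) as a black bar beside the points. NLRC5, TAP2 and TAP1 sit higher in all 3 tamarixetin libraries than in all 3 controls, HLA-C sits lower, and the groups overlap in the other 5 genes.

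The heavy chains carry the peptide groove. HLA-B and HLA-C are classical chains that present to T cells, and HLA-E shows peptides from the leader sequences of other heavy chains to natural killer cells. HLA-C (chromosome 6, 31268749 to 31272092) was at 82.5, 80.7 and 76.6 CPM in control libraries 1, 2 and 3 and at 73.2, 70.5 and 67.4 CPM in tamarixetin libraries 1, 2 and 3. Every tamarixetin library was under every control library, by a small margin. HLA-C thus fell by 0.18 on the log2 scale (SE 0.058, 95% interval -0.30 to -0.065, adjusted p = 0.00756, edgeR). The call was lost without tamarixetin replicate 3 (-0.15, adjusted p = 0.0555, edgeR) and when a change of at least 1.2-fold was required.

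HLA-B (chromosome 6, 31353875 to 31357179) was at 101, 109 and 109 CPM in the controls and 106, 99.8 and 93.8 CPM with tamarixetin. The groups overlapped, since tamarixetin replicate 1 lay above control replicate 1. The log2 fold change was -0.087 (SE 0.053, 95% interval -0.19 to 0.018, adjusted p = 0.181, edgeR), which leaves a fold between 0.876 and 1.01. HLA-E (chromosome 6, 30489509 to 30494194) was at 85.9, 79.4 and 83.0 CPM in the controls and 87.6, 89.3 and 79.3 CPM with tamarixetin. Tamarixetin replicate 3 was the lowest of all 6 libraries and replicate 2 the highest. Its log2 fold change was 0.046 (95% interval -0.066 to 0.16, adjusted p = 0.544, edgeR), a fold between 0.955 and 1.12.

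The summed counts of the 3 heavy chains were 269.3, 269.2 and 268.5 CPM in the controls and 266.9, 259.6 and 240.5 CPM with tamarixetin. The 3 sums with tamarixetin were all lower (SD 13.6 against 0.430 in the controls). The control SD of the sum was under those of the single chains (3.00 to 4.62 CPM). It is too small to stand for the spread of the controls, so the 2 SDs do not show a change in spread. This sum was not tested. The 3 genes are alike and polymorphic, so their counts are uncertain where reads match more than one of them.

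B2M, the light chain that all class I heavy chains share (chromosome 15, 44711517 to 44718145), was at 330.3, 347 and 376 CPM in the controls and 349.8, 358 and 360.4 CPM with tamarixetin. All 3 tamarixetin values lay within the range of the controls. The log2 fold change was 0.019 (SE 0.038, 95% interval -0.057 to 0.096, adjusted p = 0.719, edgeR). With the highest counts of the 9 genes, 4164 to 6011 per library, B2M had the narrowest interval, a fold between 0.961 and 1.07. There were 1.31 ± 0.0888 B2M counts for each count of the 3 heavy chains in the controls and 1.40 ± 0.0952 with tamarixetin (SD, n = 3 each), a difference about as large as the spread.

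TAP1 and TAP2 form the pump that moves peptides into the endoplasmic reticulum. TAP2 (chromosome 6, 32821831 to 32838739) was at 52.7, 59.4 and 51.8 CPM in the controls and 69.7, 74.9 and 73.9 CPM with tamarixetin. The lowest tamarixetin library was above the highest control. TAP2 rose 1.34-fold (log2 fold change 0.42, SE 0.063, 95% interval 0.29 to 0.54, adjusted p = 2.23e-08, edgeR). The counts of TAP2, 72.8 ± 2.72 CPM (SD, n = 3), then overlapped those of HLA-C, 70.4 ± 2.92 CPM, from which they had been separate in the controls. TAP1 (chromosome 6, 32845209 to 32853704) was at 27.3, 24.2 and 27.0 CPM in the controls and 29.7, 30.7 and 30.3 CPM with tamarixetin. All 3 tamarixetin libraries were above all 3 controls, but the gene did not pass: its log2 fold change was 0.20 (SE 0.088, 95% interval 0.027 to 0.38, unadjusted p = 0.0240, adjusted p = 0.0541, edgeR). With scaling by library size alone TAP1 passed (0.24, adjusted p = 0.0216, edgeR). TAP1 overlaps the antisense RNA gene PSMB8-AS1 by 1292 bases at its 3′ end, where these libraries read, and its counts are uncertain to that extent.

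TAPBP encodes tapasin, which bridges TAP to the empty heavy chain, and ERAP1 is the aminopeptidase that trims peptides in the endoplasmic reticulum. TAPBP (chromosome 6, 33299694 to 33314078) had 21 to 31 counts per library. It was at 1.66, 2.16 and 1.82 CPM in the controls and 1.35, 2.24 and 2.31 CPM with tamarixetin, with overlap. The log2 fold change of 0.057 has a 95% interval of -0.63 to 0.75 (adjusted p = 0.914, edgeR), so folds between 0.645 and 1.68 could not be told from no change at this depth. The annotated gene overlaps RGL2 by 1919 bases at its 3′ end, and RGL2 had a mean of 233 counts, so the level of TAPBP is uncertain as well. ERAP1 (chromosome 5, 96760813 to 96935854) was at 11.3, 14.6 and 13.0 CPM in the controls and 11.4, 13.3 and 14.2 CPM with tamarixetin. The groups overlapped almost fully, with a log2 fold change of -0.0054 (95% interval -0.26 to 0.25, adjusted p = 0.978, edgeR). The 3′ end of ERAP1 overlaps CAST by 13871 bases, and its upstream part overlaps ERAP2. CAST had a mean of 2584.5 counts, so the level of ERAP1 and its lack of a difference are uncertain as well. Summed over TAP1, TAP2, TAPBP and ERAP1, peptide loading counts were 93.0, 100.5 and 93.7 CPM in the controls and 112, 121.1 and 120.7 CPM with tamarixetin, and most of the gap came from TAP2.

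NLRC5 is the transactivator of class I genes. NLRC5 (chromosome 16, 56989557 to 57083520) had 44, 29 and 56 counts in the controls and 84, 84 and 60 with tamarixetin, which is 3.04, 2.41 and 3.51 against 5.38, 6.07 and 4.94 CPM. The groups did not overlap. NLRC5 rose 1.81-fold (log2 fold change 0.86, SE 0.23, 95% interval 0.41 to 1.31, adjusted p = 9.99e-04, edgeR), with a wide interval at this depth. The rise was the largest of the 9 genes, in a gene that stood above only 21.4% of the genes tested in level.

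**Figure D2:**
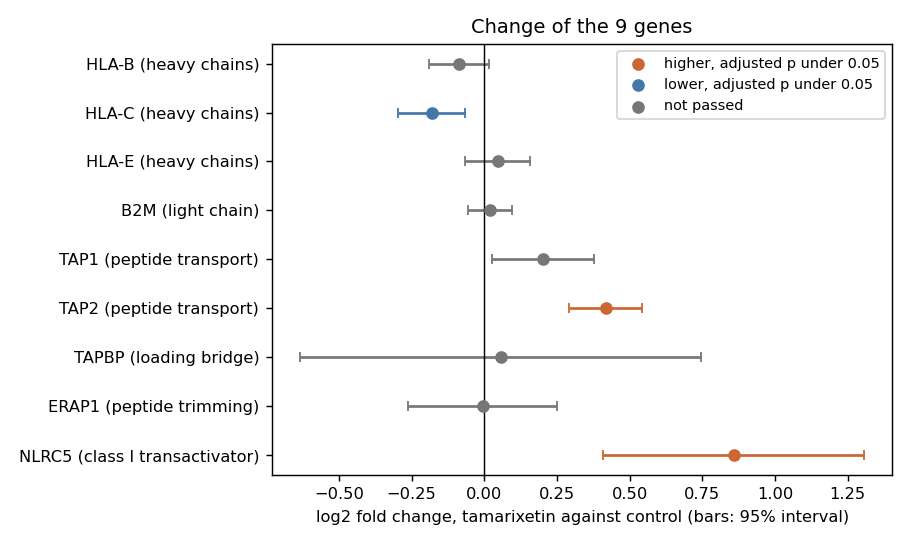
Log2 fold change of each gene, tamarixetin against control (x axis), with the 95% interval as a bar; orange and blue mark adjusted p under 0.05 and grey marks genes that did not pass. NLRC5 (0.86) and TAP2 (0.42) lie to the right of 0, HLA-C (-0.18) to the left, and the interval of TAPBP is the widest.

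Ratios between genes within a library do not depend on how libraries are scaled, and 6 were compared. The log2 ratio of HLA-E to HLA-C was 0.058, -0.024 and 0.11 in the controls and 0.26, 0.34 and 0.24 with tamarixetin. All 3 tamarixetin libraries were higher, with a difference of 0.23, or 1.17-fold (exact permutation test, two-sided p = 0.1, 0.4 adjusted over the 6 ratios). With 3 against 3 libraries no p under 0.1 is possible. The ratio of HLA-C to B2M differed by -0.21 (p = 0.2, same exact test), that of HLA-B to B2M by -0.11 (p = 0.2) and that of HLA-E to B2M by 0.022 (p = 1), all with overlap. HLA-E to HLA-B differed by 0.13 (p = 0.3) and TAP1 to TAP2 by -0.21 (p = 0.4), in the same exact permutation test. In the last ratio control replicate 2, at -1.29, lay level with the tamarixetin libraries (-1.29 to -1.23).

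**Figure D3:**
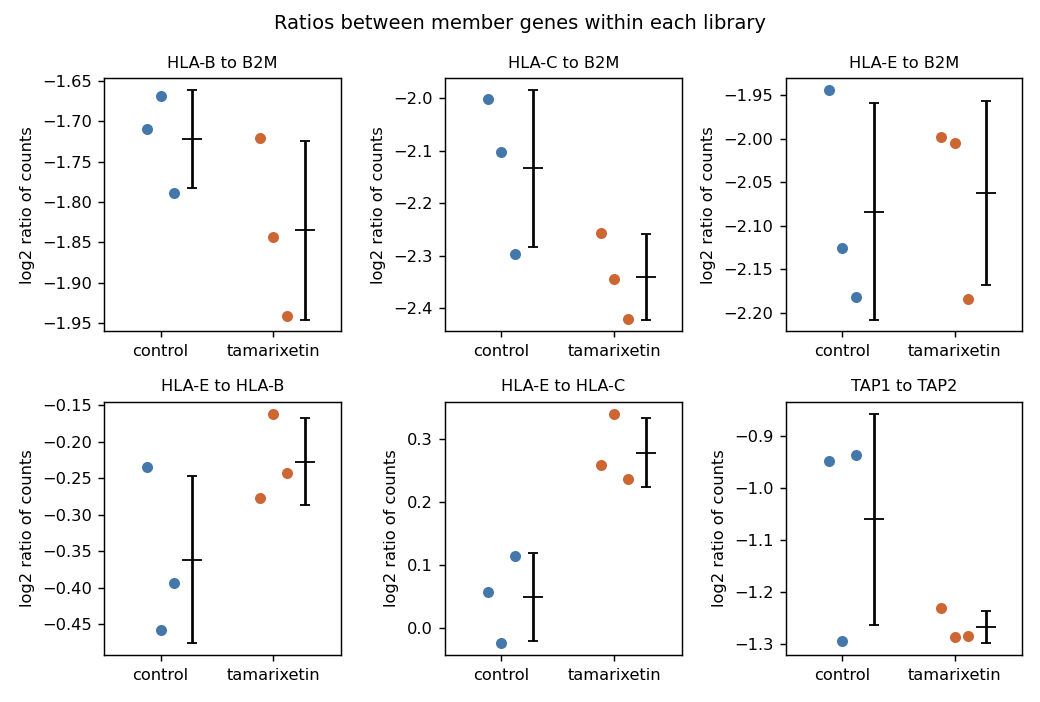
Log2 ratio of the counts of 2 genes within each library (y axis, a separate range in each panel that does not start at 0), control in blue and tamarixetin in orange, with the mean and SD (n = 3) in black. Only HLA-E to HLA-C, among these 6 ratios, separates the groups.

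The other genes of the pathway were read from the same fit in 10 lists of 141 genes, of which 117 were tested. Of these, 35 rose and 25 fell, and the median log2 fold change was 0.012. The counts of these lists stand against 22.4% higher and 21.3% lower among all genes tested, and the share of the 117 that fell is near that background. In the class II region, TAP2, PSMB8, TAP1 and PSMB9 lie next to each other, and PSMB8 and PSMB9 encode the interferon-inducible catalytic subunits of the immunoproteasome. The annotated start sites of TAP1 and PSMB9 are 488 bases apart on opposite strands. PSMB9 had 8.83, 8.32 and 6.82 CPM in the controls and 7.30, 4.19 and 4.28 CPM with tamarixetin. Tamarixetin replicate 1 overlapped the controls and the other two were lower. PSMB9 fell by 0.58 on the log2 scale (SE 0.18, adjusted p = 0.00650, edgeR), while the log2 fold change of its neighbour TAP1 was 0.20. The PSMB9 call was lost without tamarixetin replicate 2 (-0.43, adjusted p = 0.0768) or 3 (-0.46, adjusted p = 0.0551, both edgeR). PSMB8, named after its values were seen, was at 36.8 ± 5.06 and 38.1 ± 1.66 CPM (log2 fold change 0.040, adjusted p = 0.730, edgeR), and the sign turned without control replicate 2 (-0.067).

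Among immunoproteasome genes and proteasome activators, 4 of 8 rose and 3 fell, with a median of 0.075. The third inducible subunit PSMB10 rose by 0.32 (31.2 ± 1.70 to 39.0 ± 0.868 CPM), as did POMP, a proteasome assembly factor, by 0.23 and the nuclear activator PSME3 by 0.33. PSME1 and PSME2, the subunits of the interferon-inducible activator PA28, fell by 0.18 and 0.16. Of 14 standard subunits of the proteasome core 4 rose and 1 fell, with a median of 0.024. PSMA7, PSMA1 and PSMA5 rose by 0.17, 0.28 and 0.34, and PSMB1 fell by 0.20. Without control replicate 1, 2 of these subunits fell. Of 10 other peptidases 5 rose and 1 fell (median 0.14). HM13, the signal peptide peptidase that releases leader peptides of the kind HLA-E binds, rose from 142 ± 5.94 to 190.0 ± 4.98 CPM (log2 fold change 0.43, SE 0.045, adjusted p = 3.17e-14, edgeR). NRDC and LAP3 rose by 0.24 and 0.25. LNPEP, an endosomal relative of ERAP1, fell by 0.30. LAP3 did not pass without control replicate 3 (0.19) or tamarixetin replicate 1 (0.15). The count of peptidases that rose was 3 with scaling by upper quartile, without control replicate 1 or 3 and without tamarixetin replicate 3.

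Of 8 tested chaperones that fold and load the heavy chain 3 fell and 1 rose, with a median of -0.087. CALR, which encodes the calreticulin of the loading complex, was at 792, 801 and 781 CPM in the controls and 511, 538 and 535 CPM with tamarixetin. The groups were far apart for CALR, which fell by 0.58 (SE 0.034, adjusted p = 1.44e-29, edgeR). PDIA3, the disulfide isomerase ERp57 of the same complex, fell by 0.33, and GANAB, a glucosidase that prepares glycans for calreticulin and calnexin, by 0.22. CANX, the calnexin that holds new heavy chains, rose by 0.080 (adjusted p = 0.0392, edgeR). That call was lost in 8 of the 15 alternatives, among them scaling by upper quartile (0.045) and leaving out control replicate 1 (0.080) or 2 (0.066) or tamarixetin replicate 1 (0.069) or 3 (0.071).

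Among 9 tested genes of other class I and class I-like chains 3 rose and 1 fell, with a median of 0.25. MICA and MICB, stress-induced ligands of the natural killer receptor NKG2D, rose by 0.44 (20.9 ± 1.31 to 28.2 ± 0.988 CPM) and 0.28 (38.9 ± 2.69 to 47.5 ± 0.971 CPM). AZGP1, a secreted class I-like glycoprotein, rose by 0.66 (33.8 ± 1.59 to 53.5 ± 1.93 CPM). FCGRT, the heavy chain of the neonatal Fc receptor, which pairs with B2M, fell from 163 ± 5.96 to 128 ± 7.22 CPM (log2 fold change -0.35, SE 0.047, adjusted p = 3.89e-10, edgeR). MICA and MICB stand next to HLA-B on chromosome 6, where HLA-B itself did not pass.

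Of 16 factors that act on class I promoters 2 rose and 6 fell, with a median of -0.12. IRF1, an interferon-induced activator of TAP1 and heavy chain genes, rose by 0.33 (20.2 ± 2.71 to 25.2 ± 2.42 CPM, adjusted p = 0.00505, edgeR), and IRF2, a related factor that can oppose it, fell by 0.47 (25.8 ± 0.947 to 18.6 ± 0.476 CPM). The IRF1 call was lost without control replicate 3 (0.24, adjusted p = 0.0831) or tamarixetin replicate 1 (0.25, adjusted p = 0.0799, both edgeR). NFYC, a subunit of the CCAAT-binding factor NF-Y, fell by 0.37, and CREB1, which binds the X2 box of class I promoters, by 0.27. USF2 rose by 0.17.

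Genes of interferon receptors and signalling moved both ways, 4 of 15 higher and 4 lower, with a median of -0.0056. SOCS1, a feedback inhibitor of JAK kinases, was at 9.04, 10.1 and 8.33 CPM in the controls and 3.07, 3.61 and 4.28 CPM with tamarixetin. Its groups were well separated, and SOCS1 fell by 1.33 (SE 0.19, adjusted p = 2.03e-09, edgeR). The SUMO ligase PIAS1 fell by 0.48 and USP18, a brake on the type I interferon receptor, by 0.67, while the receptor chain IFNAR2 rose by 0.54. The inhibitors did not all fall. SOCS3, a feedback inhibitor related to SOCS1 and named after its values were seen, was at 1.31, 2.25 and 1.00 CPM in the controls and 3.27, 2.82 and 3.38 CPM with tamarixetin. Its groups did not overlap, and SOCS3 rose by 1.08 (SE 0.32, adjusted p = 0.00355, edgeR).

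Of 40 interferon-stimulated genes 27 were tested, 10 rose and 3 fell, with a median of 0.22. Among all genes tested 22.4% rose and 21.3% fell, with a median of 0.00038. OAS1, which makes the activator of RNase L, had 3.17, 4.58 and 3.63 CPM in the controls and 8.97, 7.44 and 10.3 CPM with tamarixetin. No tamarixetin library overlapped a control, and OAS1 rose by 1.24 (SE 0.19, adjusted p = 2.36e-08, edgeR). MX2 rose by 0.45. BST2, IFI35 and IFIT1 fell by 0.36, 0.72 and 1.16. The other 13 genes of the list had too few counts to be tested. In the class II list CD74, the invariant chain, was the single gene tested of 10, and it fell from 94.6 ± 3.53 to 58.9 ± 3.57 CPM (log2 fold change -0.68, SE 0.059, adjusted p = 1.73e-18, edgeR).

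**Figure D4:**
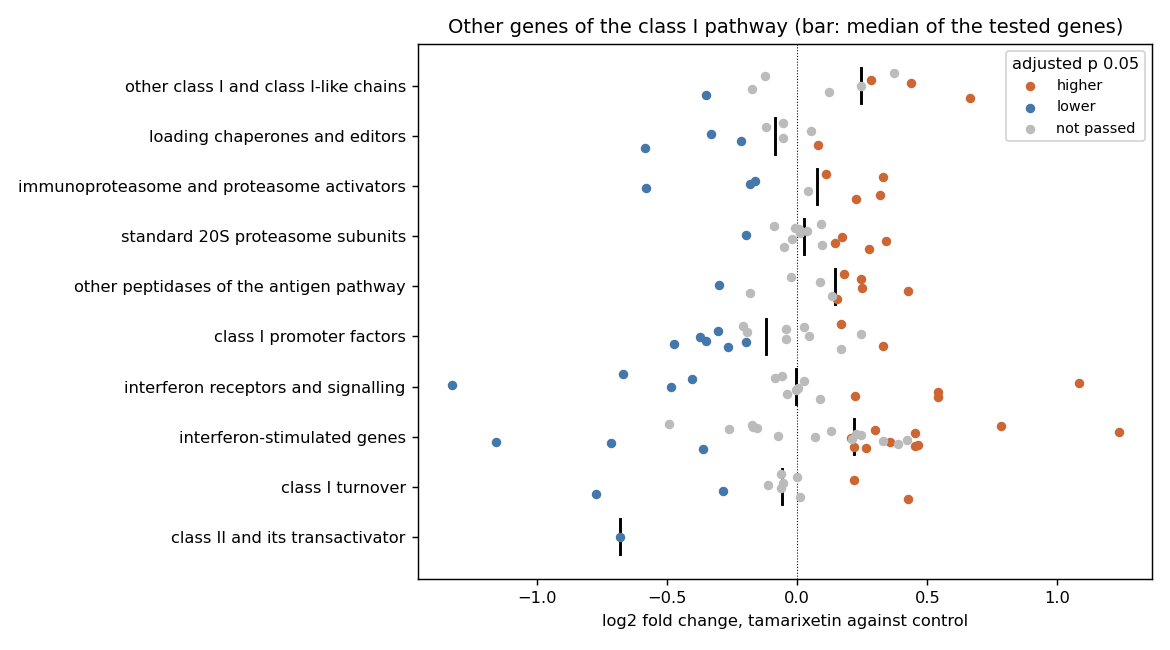
Log2 fold change, tamarixetin against control (x axis), of each tested gene in the 10 other lists of the pathway, 1 point per gene, with the list median as a black bar; orange and blue mark adjusted p under 0.05. Interferon-stimulated and signalling genes spread on both sides of 0, with SOCS1 (-1.33) and OAS1 (1.24) at the ends.

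Total counts ran from 11980585 to 16168855 per library. The label of a hepatic line was checked against 8 hepatocyte markers. Their summed level was 15784 to 16380 CPM in the controls and 9027 to 9288 CPM with tamarixetin. All 8 fell (adjusted p under 0.05, edgeR), against 21.3% of all genes tested. In these bulk libraries fewer cells of a kind and less RNA per cell cannot be told apart. Leukocytes carry much class I RNA, so 10 leukocyte markers were checked: CD3E had 0 counts in every library, and PTPRC, the common leukocyte antigen, had 0 to 3. The sum of the 10 was 909 to 1012 CPM in the controls and 768 to 823 CPM with tamarixetin, nearly all from lysozyme (LYZ), which fell by 0.26. Endothelial markers summed to 1.10 to 1.66 and 1.23 to 1.99 CPM, with KDR at 0, and fibroblast and stellate markers to 113 to 117 and 98.3 to 104 CPM. The part of the hepatocyte, LYZ and fibroblast marker shifts in the class I differences was not tested.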

How the data were processed

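RNA was counted in 3 control and 3 tamarixetin libraries of HepG2. Each library has a deposited table of unnormalised, whole-number counts by symbol. The tools that the submitters' processing notes list are fastp (0.23.1), the aligner STAR (2.7.10b) and the counter featureCounts (2.0.6), with GRCh38 as the build. Whether strand or alternate MHC contigs were used, which annotation was taken and how reads with several matches were treated is not given in the sources used here. Heavy chain genes are polymorphic and alike, so reads can be lost or split between them, and single HLA values are uncertain to that extent. Heavy chains outside the lists were not analysed here.

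Genes were tested with edgeR 4.0.16 (R 4.3.3): filterByExpr, TMM scaling, the quasi-likelihood test on the 2 groups with no covariate, and Benjamini-Hochberg adjustment over 13198 genes at 0.05. Each SE was derived from the log2 fold change and its F statistic. Intervals are 95%. CPM are counts over total count times TMM factor. The 6 pairs of libraries within a group had chi-square values per gene between 2.33 and 3.40, above sampling noise, and the biological coefficient of variation was 4.70%. The test was also run on simulated counts.

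The 9 genes, the lists and the motifs were chosen with earlier results of these data known. All 9 are named. Of each other list, up to 4 tested genes with the smallest p and any gene called against the majority are named. DESeq2 1.42.0 and limma 3.58.1 (voom) served as alternatives beside other scalings, filters, a replicate block, a fold minimum and leaving out each library. Replicate numbers are in the labels of both groups. Coordinates and promoters are from RefSeq (GRCh38.p14).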

Additional observations from a re-analysis of the deposited data

How the results depend on the processing

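TAP2 and NLRC5 rose in all 15 alternatives, with log2 fold changes of 0.38 to 0.47 and 0.73 to 0.99. For NLRC5 the filter of at least 5 CPM in 3 libraries is no support, since no control library reached 5 CPM and the gene passed only through the tamarixetin group. HLA-C fell in 13 of 15, with -0.22 to -0.15 when single libraries were left out. With a minimum fold of 1.2, HLA-C (-0.18) did not pass, and the calls were 2560 for all genes (1319 higher and 1241 lower), 19 for the other lists and 0 for members lower (edgeR, 0 also at an unadjusted p under 0.05, against 1 with DESeq2 and with voom without that minimum). Leaving out single libraries gave 0 to 1 members lower, with 1 lower at an unadjusted p without tamarixetin replicate 3. TAP1 passed with scaling by library size alone (0.24). Genes that did not pass changed sign. B2M was -0.016 with upper quartile scaling and -0.027 to 0.069 when libraries were left out. ERAP1 was 0.029 with library size alone and -0.099 to 0.084 when libraries were left out. TAPBP ran from -0.070 to 0.28, HLA-E to B2M from -0.027 to 0.092, and PSMB8 from -0.067 to 0.10. TAPBP was not tested with at least 5 CPM in 3 libraries.

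With the replicate block, 5735 genes and 3 members passed, 5687 of the genes shared with the fit without it, and no member's call changed. Same-numbered libraries did not deviate together (r from -0.017 to 0.011 over 8645 genes), so the numbers were not taken as pairs. The depth limits NLRC5 and TAPBP most, whose intervals are the widest of the 9.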

Other observations

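Of 10 tested genes that govern the turnover of class I molecules and of other proteins of the endoplasmic reticulum 2 rose and 2 fell, with a median log2 fold change of -0.057 (edgeR, Benjamini-Hochberg adjustment). That share is near the 43.7% called among all genes tested. AUP1, a factor of degradation at the endoplasmic reticulum, rose from 169.7 ± 5.47 to 228 ± 6.77 CPM (log2 fold change 0.42), and the ubiquitin-conjugating enzyme UBE2G2 rose by 0.22. MARCHF9, a ubiquitin ligase known to lower surface class I, fell from 8.44 ± 0.483 to 4.89 ± 0.732 CPM (-0.77). SEL1L, a subunit of the degradation complex, fell by 0.29.

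By likeness over the 6 libraries (Pearson r of log2 CPM, among 8644 genes of at least 10 CPM), HLA-E was nearest to METTL16, ARID5A and EPDR1 (r 0.98 each). B2M was nearest to RPAP1, POLR2D and CHRNB1 (r 0.98, 0.97 and 0.96), and TAP1 to POGK, SHARPIN and PARD6B (r 0.996, 0.993 and 0.993). These describe the libraries only: r was over 0.9 for 26 genes with HLA-E, 22 with B2M and 482 with TAP1, which all share the libraries and their depth.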
